A study of Castanea mollissima with 18 samples.

Results

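Somatic embryos 5, 6 and 7 of Chinese chestnut (Castanea mollissima) shared 126 genes at a level at least 2-fold above that of every other library of the series, out of 20365 genes tested. The genes were chosen on these same values. On the scale log2(FPKM + 1), the lowest of somatic embryos 5, 6 and 7 had to lie at least 1 above the highest of the other 15 libraries, a difference called the gap here. FPKM is a fragment count scaled to gene length and to the mapped total of the library. The peak in somatic embryos 5, 6 and 7 is therefore what the choice asked for, and it carries no test. The levels of these genes in the other 9 somatic embryos and in callus were not fixed in the same way and are the subject of the comparisons.

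The series holds 12 libraries labelled somatic embryo and 6 labelled callus, all total RNA of 1 species made into directional Illumina libraries. The tissue labels give the tissue and a number only, and no stage, line, medium or culture is stated. The sample titles also hold a digit and the codes ys and pe, alike in all 18 libraries and not explained. Nothing says whether libraries of a tissue came from separate cultures. The p-values therefore measure no more than the spread among the libraries at hand, part or all of which may be technical. Somatic embryos resemble the embryos of a seed but arise in culture from body cells without fertilisation, and callus is a mass of dividing, unorganised cells from which such embryos can arise. As they develop, plant embryos pass through patterning, then the build-up of storage reserves, then drying and rest, and large groups of genes are switched on and off together at each step. The files pair no ID with a gene name, so the genes are given by ID, no role is assigned to any of them, and markers of embryo or callus were not checked.

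Somatic embryos 5, 6 and 7 were close to one another over all tested genes, with Spearman correlations of at least 0.994 across genes, against 0.81 to 0.93 with the other somatic embryos and 0.81 to 0.88 with callus. No 2 libraries were copies: at most 1.83% of tested genes held the same FPKM in any pair. Other sets of close libraries were found in the same data, callus 1, 2 and 6, callus 3, 4 and 5, and somatic embryos 8, 9 and 10, so libraries of a set may not be independent. The 3 embryo libraries had 19504 to 19597 genes at 1 FPKM or more, within the range of 18555 to 19911 over all 18 libraries. Their summed FPKM of 982886 to 993902 also lay inside the range of the series, 950919 to 1067585.

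The peak was mostly a matter of degree. The gap ranged from 1.00 to 2.75 with a median of 1.32. In FPKM, the lowest of somatic embryos 5, 6 and 7 stood 2.01 to 8.79 times above the highest of the other 15 libraries, with a median of 2.67. The gap reached 1.5 in 43 members and 2 in 9. Just inside the limit, a gene at 382 to 469 FPKM in somatic embryos 5, 6 and 7 stood against 190 FPKM in somatic embryo 4, a gap of 1.003. Just outside, a gene at 68.7 to 73.0 FPKM stood against 33.9 FPKM in somatic embryo 8, a gap of 0.9996. There were 26 members with a gap under 1.1 and 38 genes with a gap of 0.9 to just under 1, so the limit cuts through a continuous range. A further 7 genes met the gap but were left out because callus 1, 2 and 6 all lay at least 1 below every other library in them, and none was left out for somatic embryos 8, 9 and 10.

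The members spanned a wide range of levels where they peaked. The choice asked for high values in these libraries, so the figures for all tested genes are given for scale only. The members' median FPKM was 58.1, 57.1 and 58.3 in somatic embryos 5, 6 and 7, while the median tested gene stood at 14.2, 14.5 and 14.3 FPKM there. By its median over the 3 libraries, the lowest member had 4.41 FPKM and the highest 2179 FPKM. There were 66 members at 50 FPKM or more (52.4%), of which 13 reached 500 FPKM, and a single member lay under 5 FPKM. Of all tested genes, 19.5% had a median of 50 FPKM or more in the same libraries. Together the members held 2.60%, 2.36% and 2.46% of the summed FPKM of somatic embryos 5, 6 and 7. The 10 most abundant members made up 48.4%, 48.6% and 48.2% of that sum. A filter of 1 FPKM in at least 6 of 18 libraries kept genes confined to somatic embryos 5, 6 and 7 out of the group. Without it 10 more genes met the gap, with 2.53 to 17.4 FPKM as the lowest of somatic embryos 5, 6 and 7 and at most 0.41 to 2.28 FPKM elsewhere.

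Somatic embryos 5, 6 and 7 differed little from one another in these genes. The highest of the 3 exceeded the lowest by a median of 0.16 on the log2 scale, close to the 0.17 of all tested genes, and at most by 0.73. This range reached 0.5 in 6 members. Somatic embryo 5 held the highest of the 3 values in 71 members, somatic embryo 7 in 35 and somatic embryo 6 in 20.

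Outside somatic embryos 5, 6 and 7 the members formed a graded series among the embryos. Their median was 11.4 FPKM in somatic embryo 11, 10.8 in somatic embryo 3 and 9.29 in somatic embryo 2. It was 10.9 FPKM in somatic embryo 8, 9.96 in somatic embryo 4 and 7.28 in somatic embryo 1. By this median, these 6 libraries lay clear of all 6 callus libraries. Somatic embryos 12, 10 and 9 were lower, at 4.71, 4.04 and 2.50 FPKM, so that somatic embryo 12 was level with the highest callus library and somatic embryo 9 was the lowest of all 18 libraries. In callus 1, 2 and 6 the members' median was 4.62, 4.25 and 4.44 FPKM. In callus 3, 4 and 5 it was 3.26, 3.32 and 3.27 FPKM, below the first 3 callus libraries. The median tested gene moved much less, between 11.9 and 15.3 FPKM over the 18 libraries. In tissue RNA of this kind, fewer cells of a type and less RNA per cell cannot be told apart.

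**Figure D1:**
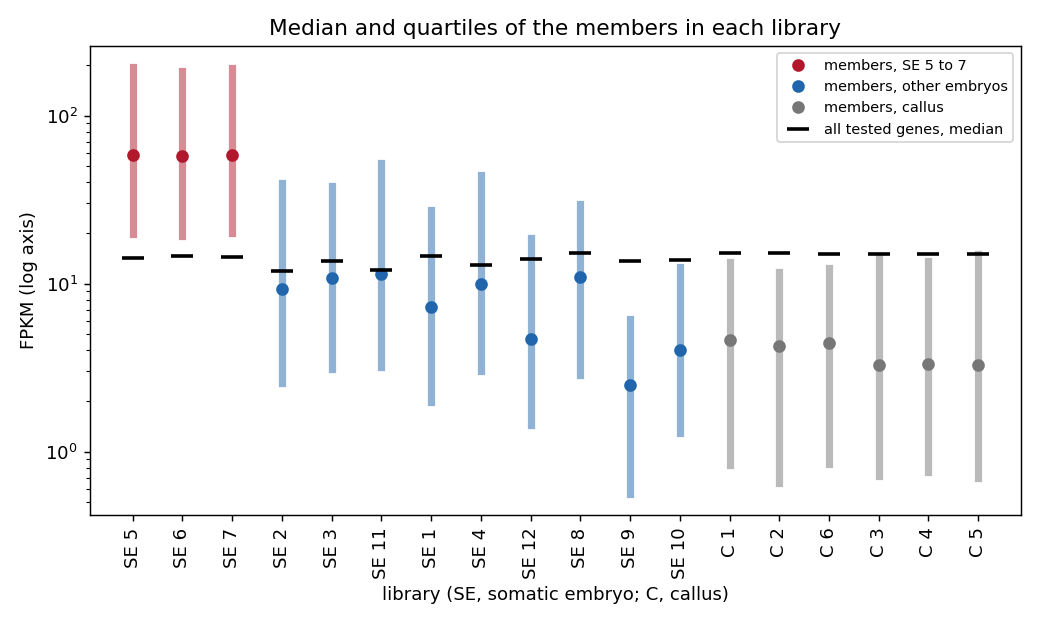
Median (point) and quartiles (bar) of the 126 members in FPKM on a log axis in each of the 18 libraries, with the median of all 20365 tested genes as a black dash. The members stand at 57.1 to 58.3 FPKM in somatic embryos 5, 6 and 7, at 2.50 to 11.4 FPKM in the other somatic embryos and at 3.26 to 4.62 FPKM in callus, while the dashes stay between 11.9 and 15.3 FPKM.

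The share of summed FPKM gave a similar order among the embryos and another one in callus. The members held 0.809% in somatic embryo 11, 0.649% in somatic embryo 2, 0.617% in somatic embryo 3 and 0.595% in somatic embryo 4. They held 0.496% in somatic embryo 8, 0.449% in somatic embryo 1 and 0.291% in somatic embryo 12, down to 0.261% and 0.196% in somatic embryos 10 and 9. In callus 3, 4 and 5 the share was 0.363%, 0.345% and 0.370%. In callus 1, 2 and 6 it was 0.307%, 0.307% and 0.299%, so by this measure callus 3, 4 and 5 were the higher ones. A few genes weigh on the sum: the 10 most abundant members made up 72.6% to 73.5% of it in callus 3, 4 and 5, and 65.8% to 66.7% in callus 1, 2 and 6.

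In most members the next highest level belonged to another embryo. Among the 15 libraries outside somatic embryos 5, 6 and 7, the highest value lay in a somatic embryo in 113 of 126 members (89.7%) and in callus in 13 (10.3%). Over all tested genes the same shares were 63.2% and 36.8%. However, 23 members were under 1 FPKM in all 6 callus libraries (18.3%, against 4.41% of all tested genes). They passed the filter on low genes through embryos alone, so their next highest library had to be an embryo. The shares therefore do not compare like with like. Of the 80 members at 1 FPKM or more in all 6 callus libraries, 68 had an embryo as the next highest. Somatic embryo 11 was the next highest library in 38 members (30.2%, against 5.69% of all tested genes), somatic embryo 4 in 22, and somatic embryos 3 and 8 in 18 each. Somatic embryos 2, 3 and 11 together came next in 64 members (50.8%, against 15.7%). Resemblance over the genes outside the group ran only partly in the same order. The mean correlation with somatic embryos 5, 6 and 7 was 0.931 for somatic embryo 3, the highest, and 0.906 for somatic embryo 11. It was 0.814 to 0.818 for callus 1, 2 and 6, 0.822 for somatic embryo 9 and 0.838 for somatic embryo 10, where the members were low too. Yet it was 0.852 for somatic embryo 8, against 0.894 for somatic embryo 12 and 0.879 to 0.886 for callus 3, 4 and 5, where the members were lower.

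**Figure D2:**
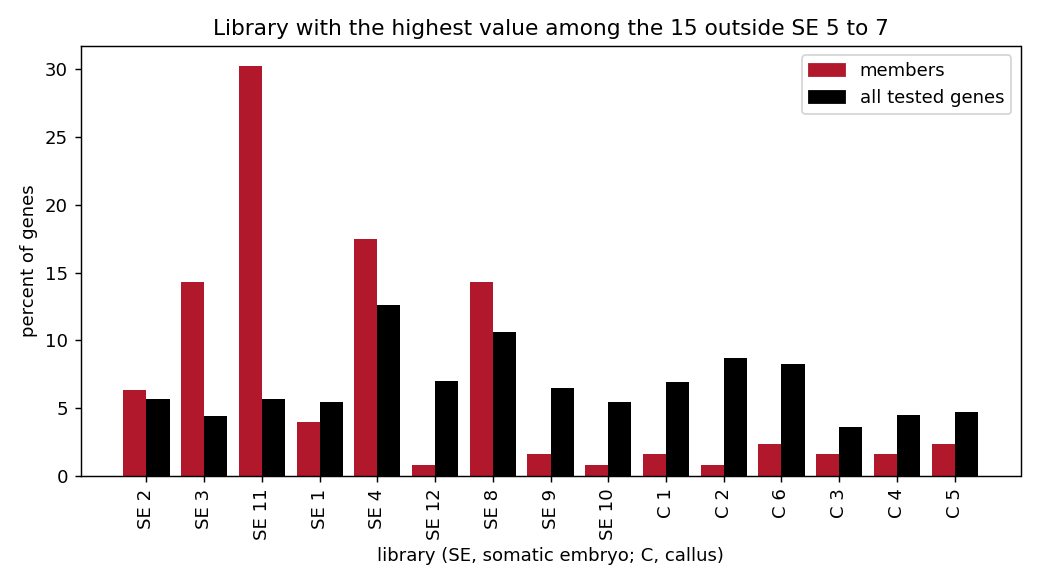
Percent of the 126 members (red) and of all 20365 tested genes (black) whose highest value among the 15 libraries outside somatic embryos 5, 6 and 7 lay in the library named on the x axis. Somatic embryo 11 stands out with 30.2% of members, against 5.69% of tested genes, and the callus libraries each hold 0.794% to 2.38% of members.

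Somatic embryo 8 parted from somatic embryos 9 and 10 in these genes. It lay at least 1 (log2) above both in 65 members (51.6%), where 2.72% of all tested genes showed this, and it lay as far below both in 0 members (against 0.00982%). The median of somatic embryo 8 minus somatic embryo 9 was 1.32 over the members and 0.08 over all tested genes. For somatic embryo 8 minus somatic embryo 10 it was 1.03 and 0.04. Somatic embryo 9 was the lowest of the 9 other embryos in 78 members (61.9%, against 13.6% of all tested genes), and somatic embryos 9, 10 and 12 were the 3 lowest in 53 (42.1%, against 2.42%). Somatic embryo 12 lay at least 1 below both somatic embryos 1 and 4 in 8 members (6.35%, against 0.182%). These differences are between single libraries and carry no test.

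Set against the range of the 6 callus libraries, the embryos differed in how many members lay above it. Somatic embryo 11 exceeded all callus libraries in 94 members (74.6%, against 26.9% of all tested genes), somatic embryo 3 in 92 (73.0%, against 28.4%) and somatic embryo 2 in 90 (71.4%, against 27.1%). Somatic embryo 4 did so in 90 members (71.4%, against 33.0%), somatic embryo 8 in 77 (61.1%, against 37.0%) and somatic embryo 1 in 70 (55.6%, against 33.3%). These shares were above those of all tested genes, as was that of somatic embryo 12, with 52 members (41.3%, against 32.7%). The shares of somatic embryo 10, with 36 members (28.6%, against 33.4%), and of somatic embryo 9, with 22 (17.5%, against 31.7%), were below. Somatic embryo 9 lay below all callus libraries in 63 of the 126 members, a share near the 43.3% of all tested genes. For somatic embryo 11 this was the case in 10 members (7.94%), against 51.5% of all tested genes. These counts include the 23 members under 1 FPKM in all 6 callus libraries (18.3%, against 4.41% of all tested genes). Such members passed the filter on low genes through embryos alone, so each had to exceed callus in some other embryos. The shares of members and of all tested genes therefore do not compare like with like.

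**Figure D3:**
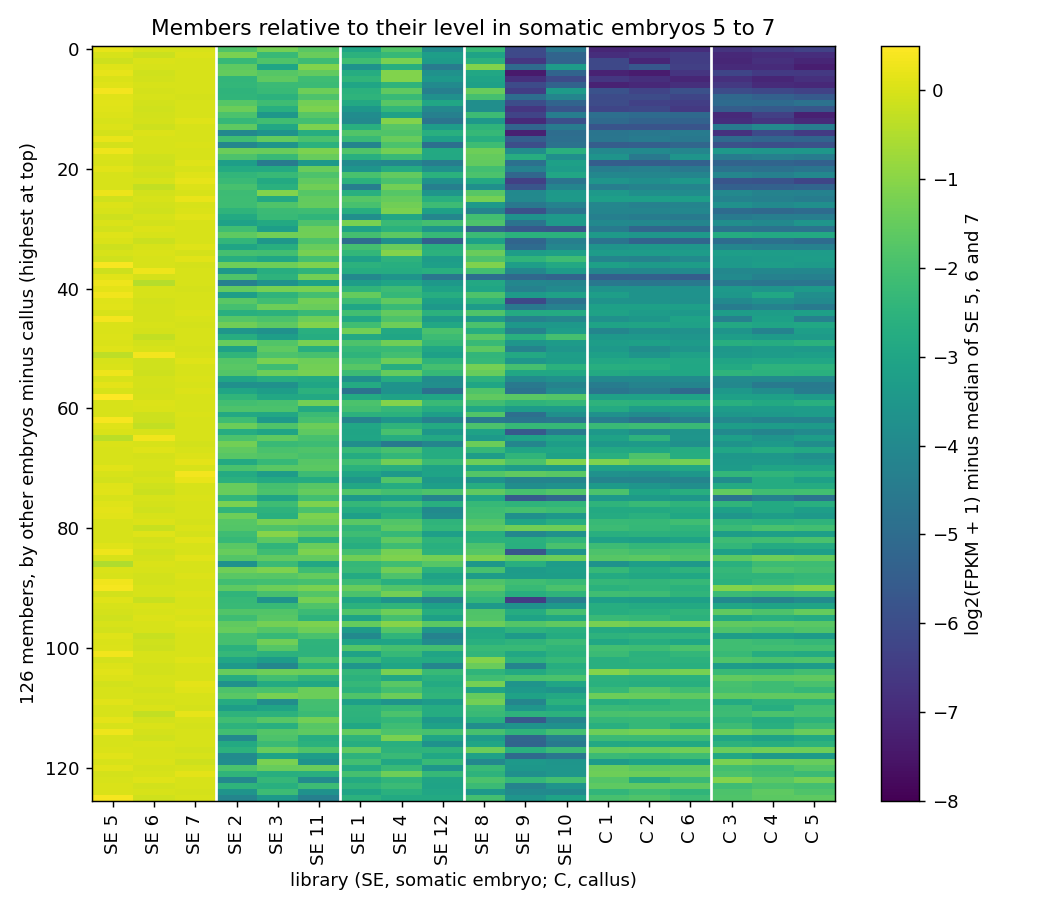
Level of each of the 126 members (rows) in each library (columns), as log2(FPKM + 1) minus the median of somatic embryos 5, 6 and 7, with rows ordered by the log2 fold change between the other somatic embryos and callus. White lines part sets of close libraries; somatic embryos 9 and 10 are darker than somatic embryo 8 in most rows, and the top rows are darkest in callus.

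The labels' own contrast was tested on the libraries that did not raise the genes. The other 9 somatic embryos were compared with the 6 callus libraries by limma, which fits all 20365 tested genes, and calls asked for an adjusted p (Benjamini-Hochberg) below 0.05 together with a change of 2-fold or more. Of the members, 33 rose in the other somatic embryos (26.2%, against 11.0% of all tested genes) and 2 fell (1.59%, against 12.0%), and the remaining 91 were not called. In both directions together 35 members (27.8%) were called, near the share of all tested genes, 23.0%. The median log2 fold change of the members was 0.60, with quartiles of 0.09 and 1.18, and that of all tested genes was -0.13. The fold change was positive in 98 members and negative in 28, and 42.7% of all tested genes had a positive one. The 33 members that rose had log2 fold changes of 1.09 to 3.82 with a median of 1.86. Of these 33, 14 were under 1 FPKM in all 6 callus libraries, so they passed the filter on low genes through embryos alone, and a called fall was not open to them. Genes this low in callus were 18.3% of the members and 4.41% of all tested genes. The shares that rose or fell therefore do not compare like with like. Of the 80 members at 1 FPKM or more in all 6 callus libraries, 13 rose and 2 fell.

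In 10 of these 33 the ranges of the tissues did not overlap; genes both called higher and without overlap were 7.94% of the members, near the 6.25% of all tested genes. Over all members, the 9 other embryos all lay above callus in 13 (10.3%, against 7.90% of all tested genes). They all lay below in 1 member (0.794%, against 14.7%). Its log2 fold change of -0.97 (limma adjusted p = 0.012) was just under 2-fold, so it was not called. In 21 of the 33, somatic embryo 9 lay within the callus range or below it, and in 30 of them somatic embryo 8 was at least 1 above somatic embryos 9 and 10. Without somatic embryos 9 and 10 limma called 53 members higher (against 11.3% of all tested genes) and 3 lower (against 11.9%). This setting was chosen after these libraries were seen to be low in the members. Without somatic embryos 8, 9 and 10 it called 51 higher (against 11.3%) and 2 lower (against 12.7%). Leaving out any single library gave 32 to 46 members higher, where 9.66% to 11.3% of all tested genes were called higher.

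With somatic embryos 5, 6 and 7 included, as the labels group them, 59 members (46.8%) were called higher in somatic embryo than in callus, against 11.3% of all tested genes, and 0 lower, against 10.7%. The choice of genes raised 3 of the 12 embryo libraries in that comparison, and nothing is read from it.

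**Figure D4:**
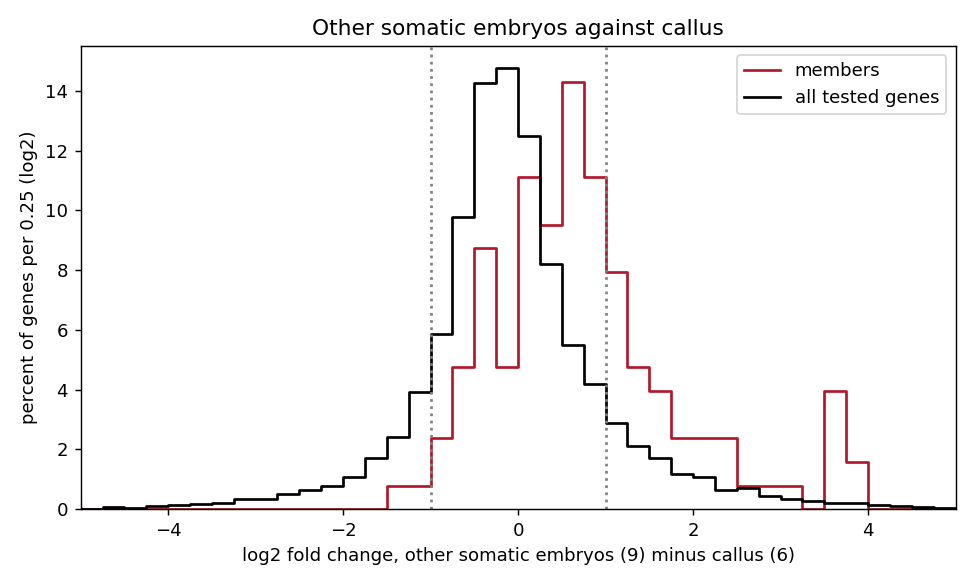
Distribution of the log2 fold change between the other 9 somatic embryos and the 6 callus libraries, as percent of genes in steps of 0.25, for the 126 members (red) and all 20365 tested genes (black); dotted lines mark 2-fold. The members' median is 0.60 and that of all tested genes -0.13.

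Callus did not lack most of these genes. All 6 callus libraries reached 1 FPKM in 80 members (63.5%, against 85.1% of all tested genes), some of them did in 23, and none did in the remaining 23 (18.3%, against 4.41%). The 80 genes present in all callus libraries had a median of 103 FPKM in somatic embryos 5, 6 and 7, 17.0 FPKM in the other embryos and 9.34 FPKM in callus. The 23 genes under 1 FPKM in every callus library had a median of 21.4 FPKM in somatic embryos 5, 6 and 7, 1.52 FPKM in the other embryos and 0.21 FPKM in callus. The median gap was 1.49 in these 23 genes and 1.29 in the 80. The 23 genes passed the filter on low genes through embryos alone, which fixes the direction of any call between the tissues. Nothing is read from their calls, though 14 of them are among the 33 members that rose. Levels under 1 FPKM change little on the log2(FPKM + 1) scale, so the fold of such genes is understated.

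The 2 sets of callus libraries differed in few of the members that the choice kept, and likewise in few of all tested genes. Callus 1, 2 and 6 all lay at least 1 above callus 3, 4 and 5 in 8 members. This was 6.35%, near the 4.56% of all tested genes. Callus 3, 4 and 5 lay as far above in 4 (3.17%, against 5.03%). The choice lowered this second count, as the 7 genes left out for low callus 1, 2 and 6 all show this difference. Nothing is read from it. The median range over the 6 callus libraries was 0.70 in the members and 0.50 in all tested genes. Over the 9 other embryos it was 2.30 and 1.33. A range grows with the number of libraries, and the log2(FPKM + 1) scale compresses the low levels of many members in callus. The tissues are therefore not compared by it.

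The largest gaps belonged to Cm08G00633.gene and Cm11G01395.gene, which were low in every other library. Cm08G00633.gene had 28.4, 24.7 and 25.6 FPKM in somatic embryos 5, 6 and 7. In the other 9 embryos it had 0.13 to 2.81 FPKM with a median of 1.03, and in the 6 callus libraries 0.16 to 0.63 FPKM with a median of 0.34. The highest of these 15 values was that of somatic embryo 1, and the gap was 2.75. Embryos and callus overlapped, and the difference between the other embryos and callus, 0.70 ± 0.24 SE on the log2 scale (limma adjusted p = 0.027), was under 2-fold. Cm11G01395.gene had 15.0, 14.5 and 15.1 FPKM in somatic embryos 5, 6 and 7. It had 0.08 to 1.78 FPKM in the other embryos (median 0.98), where somatic embryos 1, 9, 10 and 12 stayed at or under 0.22 FPKM. In callus it had 0.01 to 0.06 FPKM. The gap was 2.48, and the other embryos and callus did not overlap but differed by 0.72 ± 0.23 SE (limma adjusted p = 0.018), again under 2-fold on a scale that compresses such low values. With a pseudocount of 0.1 the log2 fold change was 2.27 for Cm11G01395.gene and 1.44 for Cm08G00633.gene, and limma then called both. As both genes were under 1 FPKM in all 6 callus libraries, they passed the filter on low genes through embryos alone. Nothing is read from the direction of their difference.

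Among the members that rose in the other embryos without overlap, the largest changes were those of Cm07G00655.gene and Cm06G00816.gene. Both were under 1 FPKM in all 6 callus libraries. They therefore passed the filter on low genes through embryos alone, and a called fall was not open to them. Their values are given as a description, and nothing is read from the direction of the change or its p-value. Cm07G00655.gene had 165, 144 and 146 FPKM in somatic embryos 5, 6 and 7. It had 1.14 to 59.4 FPKM in the other embryos with a median of 28.7, against 0.08 to 0.82 FPKM in callus with a median of 0.32. Somatic embryo 9 was the lowest embryo, and somatic embryo 10, at 5.05 FPKM, the next. The means were 27.4 ± 20.3 FPKM in the other embryos (SD, n = 9) and 0.38 ± 0.30 FPKM in callus (SD, n = 6), with a log2 fold change of 3.82 ± 0.62 SE (limma adjusted p = 0.00016). Cm06G00816.gene had 162, 142 and 168 FPKM in somatic embryos 5, 6 and 7. It had 1.33 to 70.1 FPKM in the other embryos with a median of 27.1, against 0.25 to 0.87 FPKM in callus with a median of 0.38. Somatic embryos 9 and 10, at 1.33 and 3.27 FPKM, were again the lowest embryos. The means were 28.9 ± 23.3 FPKM (SD, n = 9) and 0.46 ± 0.23 FPKM (SD, n = 6), with a log2 fold change of 3.76 ± 0.63 SE (limma adjusted p = 0.00021).

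The 2 members that fell in the other embryos were Cm07G01691.gene and Cm10G01241.gene, named here after their values had been seen. Both stood higher in callus than in most embryos outside the peak. Cm07G01691.gene had 15.8, 15.6 and 15.1 FPKM in somatic embryos 5, 6 and 7. It had 0.05 to 2.67 FPKM in the other embryos (median 0.50), against 2.06 to 4.38 FPKM in callus (median 3.13). The tissues overlapped only through somatic embryo 3. The log2 fold change was -1.21 ± 0.27 SE (limma adjusted p = 0.0019). Without callus 3, 4 and 5 it was -0.93 and without somatic embryos 8, 9 and 10 it was -0.95, both under 2-fold. On the libraries numbered 1 to 4 of both tissues it was -0.83 and the p threshold was not met either. There the limma adjusted p was 0.087, or 0.081 with libraries paired by number. Cm10G01241.gene had 56.8, 40.6 and 43.7 FPKM in somatic embryos 5, 6 and 7. It had 1.27 to 9.83 FPKM in the other embryos (median 4.29), against 8.94 to 13.5 FPKM in callus (median 11.5). The tissues overlapped only through somatic embryo 8, and somatic embryos 2 and 11, at 1.53 and 1.27 FPKM, were the lowest. The log2 fold change was -1.35 ± 0.30 SE (limma adjusted p = 0.0019).

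**Figure D5:**
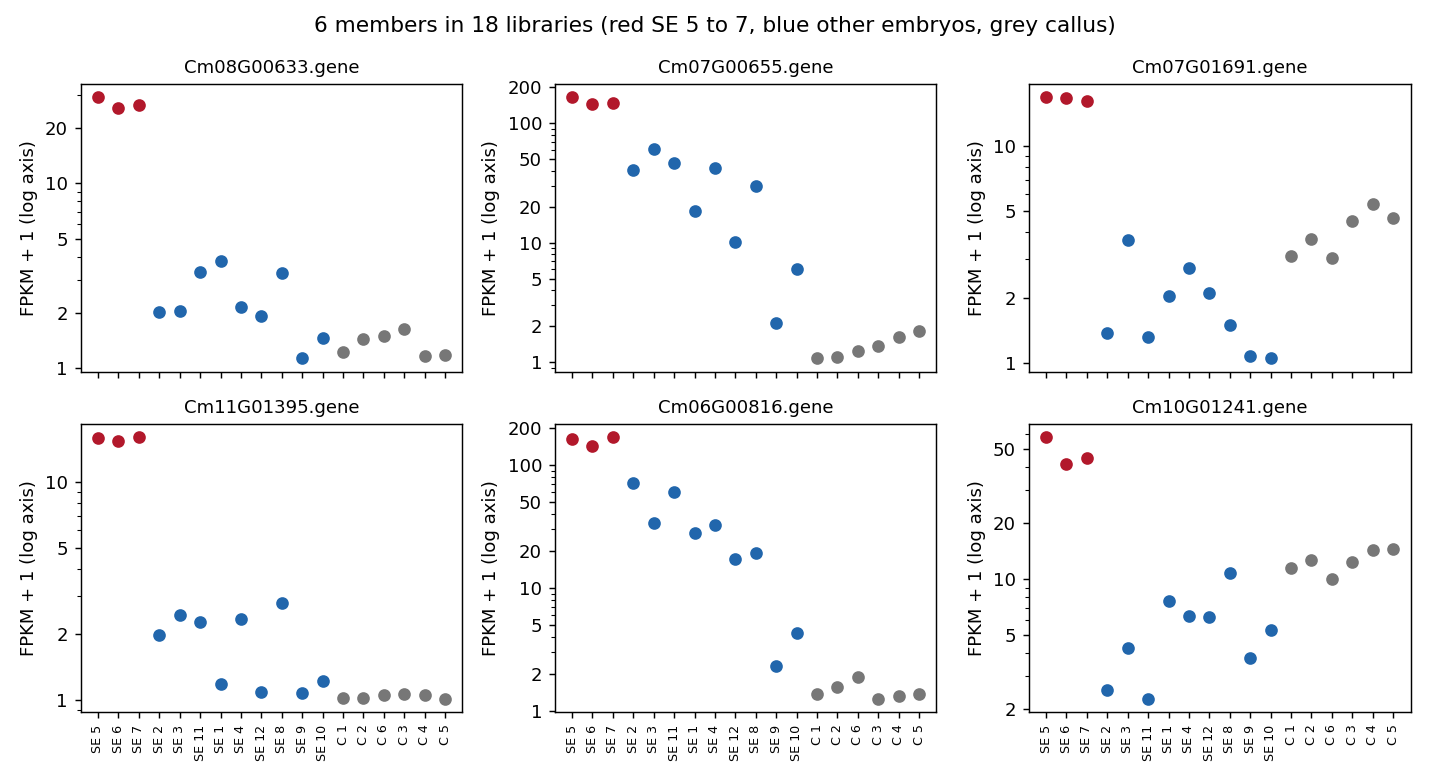
FPKM + 1 on a log axis in each library for 6 members: the 2 with the largest gap (left), the 2 with the largest rise in the other embryos over callus (middle) and the 2 that fell there (right). Somatic embryos 5, 6 and 7 (red) top every panel; the other embryos (blue) lie above callus (grey) in the middle panels and mostly below it in the right panels.

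The members occurred in all parts of the numbering of the IDs, and some of them stood side by side. Each value of the 2 digits after "Cm", from 00 to 12, held 4 to 20 members, or 0.278% to 1.77% of the tested genes with those digits, where the members were 0.619% of all tested genes. Of the 126 members, 19 stood next to another member in the order of tested IDs, in 10 such pairs with a longest run of 3, and 25 had another member within 5 ID numbers. How many neighbours other sets of genes of this size would hold was not computed. Whether such neighbours are similar copies that share reads was not examined.

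The same gap marked fewer genes in somatic embryos 5, 6 and 7 than in some other close sets. Counted by the gap alone, 133 genes peaked in somatic embryos 5, 6 and 7, 266 in somatic embryos 8, 9 and 10, 424 in callus 1, 2 and 6 and 63 in callus 3, 4 and 5. In the opposite direction, 6 genes lay at least 1 below all other libraries in somatic embryos 5, 6 and 7. These counts were not tested against each other.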

How the data were processed

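The authors deposited FPKM values in a single table of 33991 gene IDs, with 2 decimals. Per the submitters' processing notes, FastQC 0.11.9, Trimmomatic and STAR 2.7.10b were used; which tool computed FPKM, on which build and gene models, is not given in the sources used here. The 18 columns matching a labelled sample were used and 195 others were not. Depth is unknown: between pairs of libraries, at most 12.5% of low genes lay on the steps whole reads would leave, against 7.28% to 7.40% at the median offset, so no counts were recovered and no counting interval is given.

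Values were transformed to log2(FPKM + 1), and genes with at least 1 FPKM in 6 libraries were tested. limma 3.58.1 in R 4.3.3 (trend and robust settings, statmod 1.5.0) compared tissues, and the fit was tested on simulated data. Other values were computed with Python 3.11.15, NumPy 2.4.6 and pandas 2.3.3. The members and sets of libraries were chosen with earlier results of these data known. Named genes were the 2 members with the largest gap, the 2 with the largest called rise and the 2 with the largest called fall among those without overlap; as none fell without overlap, the 2 called falls were named after their values were seen. Lists of pathway genes could not be matched to IDs and were not run.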

Additional observations from a re-analysis of the deposited data

How the results depend on the processing

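Under other pseudocounts, filters and scalings the number of members ranged from 95, with a mean of at least 5 FPKM required, to 145, with a pseudocount of 0.01. Median-of-ratios scaling gave 98 genes, 93 of them among the 126. The gap sets the number directly, at 401 genes for 0.5, 43 for 1.5 and 9 for 2. Leaving out 1 library gave 125 to 183 genes, the most without somatic embryo 4. The 35 members called between the other somatic embryos and callus became 35 to 49 when 1 library was left out, the most without somatic embryo 9. Of all tested genes, 11.1% were then called higher and 11.9% lower. Without the fold limit 53 members were called, with 17.8% of all tested genes higher and 27.8% lower. There were 53 calls without somatic embryos 8, 9 and 10 (of all tested genes, 11.3% higher and 12.7% lower). In settings chosen after the data were seen, there were 56 without somatic embryos 9 and 10 (11.3% and 11.9%). Without somatic embryos 9, 10 and 12 there were 60 (11.5% and 12.4%). Calls numbered 30 without callus 1, 2 and 6 (6.83% and 8.6%) and 27 without callus 3, 4 and 5 (12.7% and 14.4%). Over all settings run for the 35 calls, 26 of 31 stayed within 1.5 times of that count. The cause of the others was not tested. With all 12 somatic embryos, leaving out 1 library gave 46 to 68 calls. The shares of all tested genes were 10.1% and 9.76% without callus 1, and 11.5% and 10.6% without somatic embryo 9, which gave the most. Median-of-ratios scaling moved the median log2 fold change of all tested genes to 0.02, against -0.13 as deposited. The members' median was then 0.71, and 36 were called higher (against 12.8% of all tested genes) and 2 lower (against 9.69%). With a replicate block, on numbers 1 to 4 of both tissues, 53 members were called (of all tested genes, 9.32% higher and 10.8% lower). On the same libraries without the block 52 were called (9.68% and 11.3%). Deviations of same-numbered libraries correlated between -0.12 and 0.04, so the numbers gave no sign of a replicate pairing. With all 12 embryos, on numbers 1 to 6, both fits called 77. The shares of all tested genes were 11% and 10.4% with the block, and 11.2% and 10.6% without it. As FPKM holds no read counts, what depth limits in genes near 0 is unknown.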
